A study of Mus musculus with 3 samples.

Results

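The VEGF ligand and receptor genes were followed across 3 stromal cell populations of the mouse mesenteric lymph node, the node that drains the intestine. The group holds 8 genes, taken by their names in the scanner files, of 28471 gene names on the array. They are the 5 ligand genes Vegfa, Vegfb, Vegfc, Figf (named Vegfd in newer annotation) and Pgf, and the 3 receptor genes Flt1 (VEGFR1), Kdr (VEGFR2) and Flt4 (VEGFR3). Together they have 15 probes, each 60 bases long.

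All cells came from wild-type C57BL/6NCrl mice, after collagenase digestion and magnetic removal of CD45+ cells, and were sorted as CD45-, CD24- cells. Fibroblastic reticular cells (FRC, gp38+ CD31-) are the fibroblasts that build the conduit network of the node, lymphatic endothelial cells (LEC, gp38+ CD31+) line its sinuses, and blood endothelial cells (BEC, gp38- CD31+) line its vessels. The labels give a mean purity of 88% ± 1.5 over the sorted subsets, and neither the age of the mice nor the number of mice and sorts behind each RNA is stated in the sources used here. Each population was measured on 1 single-colour array, 3 arrays on 1 slide in all, so no difference between populations has a replicate check, and no test of a difference was made.

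VEGF ligands are secreted dimers that bind receptor tyrosine kinases carried mainly by endothelial cells. VEGF-A signals through VEGFR2 for growth, permeability and survival of blood vessels, and VEGFR1 binds VEGF-A, VEGF-B and placental growth factor (the product of Pgf) and acts largely as a trap. VEGF-C and VEGF-D act on VEGFR3, the main receptor for lymphatic growth, and VEGF-C after proteolytic processing also acts on VEGFR2. In lymph nodes, VEGF from stromal and immune cells accompanies the growth of high endothelial venules and lymphatic sinuses when a node enlarges.

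The ligand genes Vegfa, Vegfc and Figf were brightest on the FRC array, and all 3 receptor genes were brighter on both endothelial arrays than on the FRC array. Values are log2 signals of a probe after division by its array's 75th percentile signal, a fold is the ratio of 2 arrays for the same probe, and levels of different probes are not compared. A gene is represented by its brightest probe over the 3 arrays, and was called higher at 4-fold or more. Because whole sorted populations were measured, fewer cells with a transcript and less of it per cell cannot be told apart. The receptor genes Kdr, Flt1 and Flt4 exceeded their FRC signal by 79.9-fold, 12.1-fold and at least 12.8-fold on the LEC array, and by 55.1-fold, 180.5-fold and at least 8.53-fold on the BEC array. A bound ("at least") is given where the dimmer array did not read well above background, a mark of the scanner software. The array was then set at the lowest signal with that mark, or at the probe's own signal if that was higher.

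Between LEC and FRC, 3 of the 8 genes were called higher in LEC (Flt1, Kdr and Flt4) and 2 higher in FRC (Vegfc and Figf). Of 18624 genes compared between these arrays, 4.85% were called higher in LEC and 5.90% higher in FRC. The same 3 receptor genes were called higher in BEC than FRC, and Vegfa and Figf higher in FRC than BEC. Over 19024 genes compared, the background was 6.55% higher in BEC and 7.54% higher in FRC. Between the endothelial arrays, 1 gene was called higher in LEC (Vegfa) and 2 higher in BEC (Vegfc and Flt1), against 3.37% and 3.38% of 18497 genes. The median log2 difference of the 8 genes was -0.10 between LEC and FRC, 0.19 between BEC and FRC and 0.48 between LEC and BEC (first minus second), and that of all genes was 0.03, 0.09 and -0.07. The 3 comparisons share arrays, so their counts are not separate evidence.

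**Figure D1:**
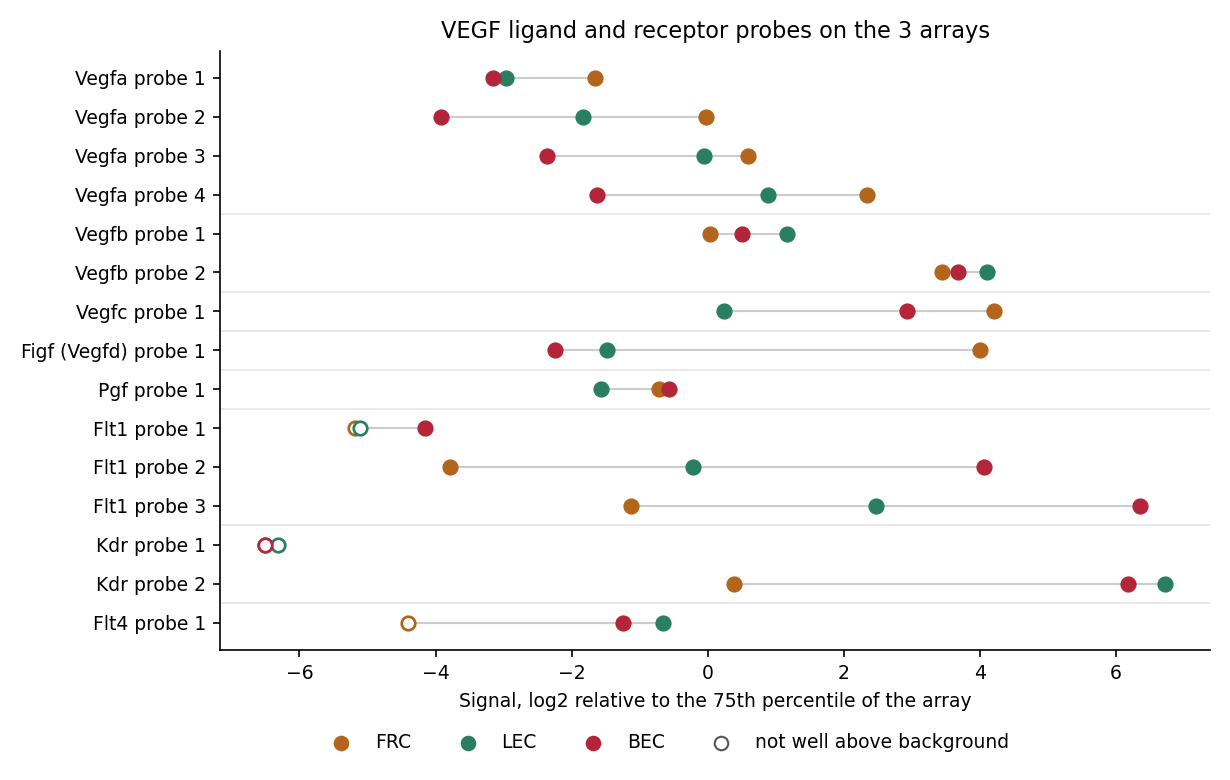
Scaled log2 signal (horizontal axis) of each of the 15 probes of the VEGF ligand and receptor genes on the FRC, LEC and BEC arrays, 1 point an array, with probes of a gene in 5′ to 3′ order and open circles for signals not well above background. The FRC point is the highest for every Vegfa probe and for Vegfc and Figf, and the lowest for the brightest probe of each receptor gene.

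The receptor genes come first by sequence because all 3 were brighter on both endothelial arrays than on the FRC array, and their upstream sequences show what they share there. The lines give the 250 bases before the transcript start in RefSeq's table for build GRCm38.p6, on the strand of the gene, with capitals for the motif matches described after them. The windows are chr5:147726012-147726261 (minus strand) for Flt1, chr5:75978456-75978705 (minus strand) for Kdr and chr11:49609429-49609678 (plus strand) for Flt4.
Flt1: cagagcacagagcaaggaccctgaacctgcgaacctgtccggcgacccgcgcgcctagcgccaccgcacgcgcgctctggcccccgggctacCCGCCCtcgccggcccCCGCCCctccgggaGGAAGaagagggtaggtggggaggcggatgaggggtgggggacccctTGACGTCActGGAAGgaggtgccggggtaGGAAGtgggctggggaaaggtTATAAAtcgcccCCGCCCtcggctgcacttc
Kdr: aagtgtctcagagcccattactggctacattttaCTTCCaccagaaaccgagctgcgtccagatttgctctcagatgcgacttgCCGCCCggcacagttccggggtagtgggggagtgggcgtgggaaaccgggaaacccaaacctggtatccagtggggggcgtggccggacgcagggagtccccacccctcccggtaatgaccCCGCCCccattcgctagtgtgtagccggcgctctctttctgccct
Flt4: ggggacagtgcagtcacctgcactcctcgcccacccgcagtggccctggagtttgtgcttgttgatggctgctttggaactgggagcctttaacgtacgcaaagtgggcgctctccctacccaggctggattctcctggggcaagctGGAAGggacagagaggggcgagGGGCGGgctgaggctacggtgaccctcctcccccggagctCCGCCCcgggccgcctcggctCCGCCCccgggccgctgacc

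The 3 ligand genes that were brightest on the FRC array are shown for contrast in the same way. The windows are chr17:46032378-46032627 (minus strand) for Vegfa, chr8:54077282-54077531 (plus strand) for Vegfc and chrX:164373272-164373521 (plus strand) for Figf, which the table lists as Vegfd. RefSeq's table held 2 entries for Vegfa and 2 for Pgf, and the first was used.
Vegfa: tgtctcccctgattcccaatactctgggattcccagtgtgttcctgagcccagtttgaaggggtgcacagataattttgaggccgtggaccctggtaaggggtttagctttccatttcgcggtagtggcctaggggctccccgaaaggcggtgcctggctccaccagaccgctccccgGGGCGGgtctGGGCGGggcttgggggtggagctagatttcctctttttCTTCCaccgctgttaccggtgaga
Vegfc: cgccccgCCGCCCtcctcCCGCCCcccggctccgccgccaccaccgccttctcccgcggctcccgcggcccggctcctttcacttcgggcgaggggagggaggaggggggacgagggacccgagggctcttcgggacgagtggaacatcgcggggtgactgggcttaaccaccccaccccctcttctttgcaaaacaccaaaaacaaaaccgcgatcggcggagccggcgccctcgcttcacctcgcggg
Figf: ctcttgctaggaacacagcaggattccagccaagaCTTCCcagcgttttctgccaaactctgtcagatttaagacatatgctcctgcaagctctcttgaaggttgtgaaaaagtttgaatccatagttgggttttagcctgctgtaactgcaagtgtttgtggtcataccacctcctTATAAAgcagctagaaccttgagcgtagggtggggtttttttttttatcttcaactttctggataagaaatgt

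All 8 genes matched the promoter table, and each window was searched on both strands for 5 motifs, all fixed strings of letters. These were the ETS core GGAAG, the GC box GGGCGG, the TATA box TATAAA, the cAMP response element TGACGTCA and the hypoxia response core ACGTG. ETS core here means the string GGAAG alone, a narrow form. GGAA followed by another base, as in the Kdr, Flt4 and Vegfc windows, was neither marked nor counted. Flt1 held 3 ETS cores, with first bases at -128, -71 and -52 from the start, with a cAMP response element from base -81 to -74 and a TATA box from -31 to -26. Kdr and Flt4 each held 1 GGAAG string and no TATA box. GC boxes numbered 3 in Flt1, 2 in Kdr and 3 in Flt4.

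Among the ligand genes, Vegfa held 1 ETS core and 2 GC boxes, Vegfc 2 GC boxes, and Figf 1 ETS core and a TATA box from base -73 to -68 but no GC box. Vegfb held 4 GC boxes, of which 2 adjoin without overlap, and Pgf held 2. Of 32851 windows of the same length in the table, 64.1% held an ETS core, 32.7% a GC box, 12.4% a TATA box, 1.55% a cAMP response element and 16.6% the hypoxia core. The number of the 8 genes with each was 5, 7, 2, 1 and 0. The ETS core is therefore common in all genes, and its presence in all 3 receptor windows is a description of letters, not of binding. Base composition also differed, with a GC content of 70.4% for Flt1, 61.6% for Kdr and 68.4% for Flt4. The ligand genes had 59.2% (Vegfa), 76.4% (Vegfb), 71.6% (Vegfc), 68.4% (Pgf) and 42.4% (Figf). Only Figf lay below the median of 52.4% over all windows.

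**Figure D2:**
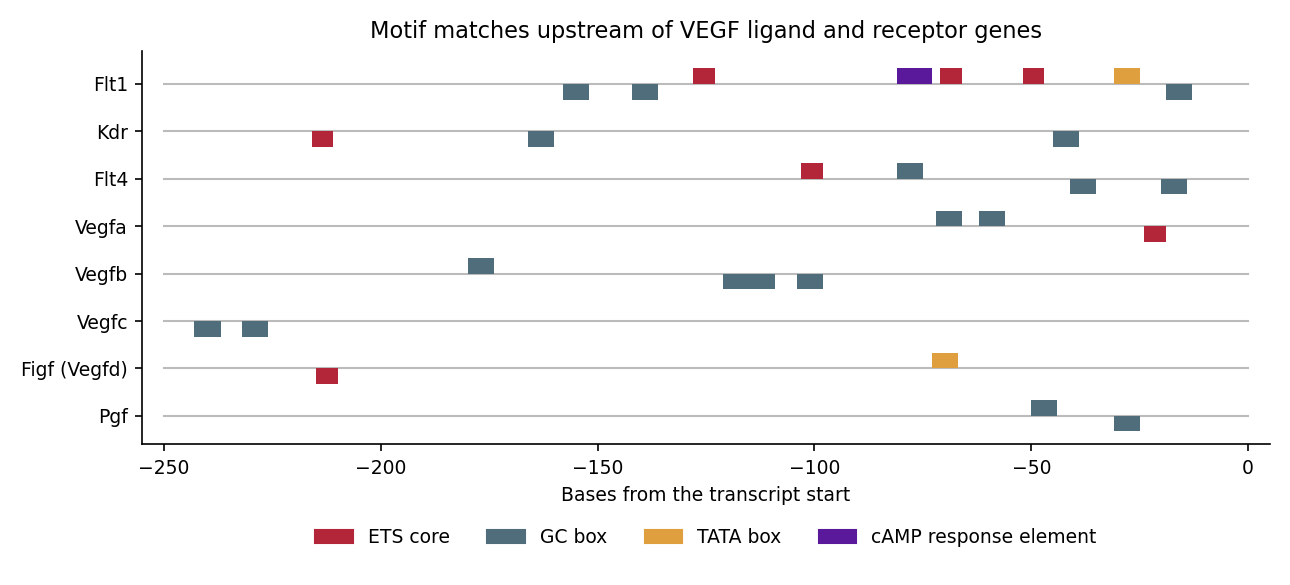
Positions of motif matches in the 250 bases before the transcript start of the 8 genes (horizontal axis, bases from the start), with matches on the strand of the gene above the line and those on the opposite strand below it. Flt1 holds the most matches, with 3 ETS cores (GGAAG) and the only cAMP response element. Of the strings searched, Vegfb, Vegfc and Pgf match the GC box alone.

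Vegfa, the ligand that drives blood vessel growth, had 4 probes, and every one was brightest on the FRC array and dimmest on the BEC array. The brightest probe (A_52_P638895, mm9 chr17:46154387-46154446, minus strand) read 2.35 on FRC, 0.89 on LEC and -1.62 on BEC. Its processed signals were 1972.1, 496.3 and 117.6 on the same arrays, all well above background. The LEC signal was thus 36.3% and the BEC signal 6.39% of the FRC signal after scaling. FRC exceeded LEC by 2.75-fold, below the 4-fold call, and exceeded BEC by 15.6-fold, while LEC exceeded BEC by 5.68-fold. That last call was lost under normexp (1.98, log2) and with the median over the Vegfa probes (1.82).

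The other Vegfa probes lie further 5′ in the gene, and their differences between arrays varied in size. LEC minus FRC ranged over the 4 probes from -1.81 to -0.65 and BEC minus FRC from -3.97 to -1.51, both on the log2 scale. Of the 4, A_52_P229471, the farthest 5′ (mm9 chr17:46169039-46169098), read -1.65, -2.96 and -3.16, so LEC and BEC were only 0.20 apart there. The other 3 probes put LEC above BEC by 2.09 to 2.51. A_51_P482552 (mm9 chr17:46155512-46155571) was spotted 10 times on each array and read 0.60 ± 0.07 on FRC, -0.05 ± 0.08 on LEC and -2.36 ± 0.15 on BEC (SD between the 10 spots of 1 array, which is spot error and not spread between animals). Those spot errors are smaller than each of its differences between arrays. The remaining probe, A_52_P249424, read -0.02 on FRC, -1.83 on LEC and -3.92 on BEC.

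Vegfb, a ligand of VEGFR1 linked to fatty acid handling in endothelium, differed by less than 4-fold in each comparison at both of its probes. The brighter probe (A_51_P458168, mm9 chr19:7056962-7057019, minus strand) read 3.44 on FRC, 4.10 on LEC and 3.68 on BEC. Its processed signals were 4201.2, 4593.6 and 4610.7. LEC was 1.58-fold above FRC, BEC 1.18-fold above FRC and LEC 1.34-fold above BEC. The order of FRC against either endothelial array depended on the scaling, with LEC minus FRC between -0.11 and 0.71 and BEC minus FRC between -0.19 and 0.23 over the scalings tried. The second probe (A_52_P436628, mm9 chr19:7057245-7057304) read 0.04, 1.16 and 0.51.

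Vegfc, the principal lymphatic growth factor, was brightest on the FRC array and dimmest on the LEC array. Its 1 probe (A_51_P433870, mm9 chr8:55271533-55271592, plus strand) read 4.21 on FRC, 0.24 on LEC and 2.93 on BEC, from processed signals of 7152.2, 315.5 and 2759.5. FRC exceeded LEC by 15.7-fold and BEC exceeded LEC by 6.49-fold. FRC exceeded BEC by 2.42-fold, which was not called. The LEC signal was 6.37% and the BEC signal 41.4% of the FRC signal. Vegfc therefore separated the endothelial arrays in the direction opposite to Vegfa.

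Figf, which encodes VEGF-D, showed the largest difference between FRC and either endothelial array of the 5 ligand genes. Its 1 probe (A_51_P117739, mm9 chrX:160840395-160840454, plus strand) read 4.01 on FRC, -1.48 on LEC and -2.25 on BEC. Processed signals of 6233.4, 95.9 and 75.6 lie behind these values, and all 3 were well above background. FRC exceeded LEC by 45.0-fold and BEC by 76.9-fold, leaving 2.22% of the FRC signal on LEC and 1.3% on BEC. LEC and BEC were 1.71-fold apart.

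Pgf, which encodes placental growth factor, a VEGFR1 ligand, stayed within 2-fold over the 3 arrays. Its 1 probe (A_51_P318381) maps to mm9 chr12:86508335-86510337 on the minus strand, a span of 2003 bases for a probe of 60. It read -0.72 on FRC, -1.57 on LEC and -0.57 on BEC, from processed signals of 235.2, 90.2 and 243.1. FRC exceeded LEC by 1.81-fold, BEC exceeded FRC by 1.11-fold and BEC exceeded LEC by 2-fold.

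Flt1, which encodes VEGFR1, was graded over the 3 arrays, with BEC above LEC and LEC above FRC. The brightest probe (A_51_P398723, mm9 chr5:148373791-148373850, minus strand) read -1.13 on FRC, 2.47 on LEC and 6.36 on BEC, from processed signals of 176.5, 1484.6 and 29719.5. The LEC signal was 6.73% and the FRC signal 0.554% of the BEC signal, and BEC exceeded LEC by 14.9-fold. A second probe that starts 73 bases further 5′ (A_52_P520859) read -3.79, -0.21 and 4.06, with BEC 230.7-fold above FRC. On this probe LEC exceeded FRC by 3.58 and BEC exceeded LEC by 4.27 on the log2 scale. The remaining probe (A_52_P650151), 83268 bases 5′ of the second, was designed on a transcript with no match in the RefSeq table. It read -5.18, -5.11 and -4.16, and only the BEC signal was well above background.

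Kdr, which encodes VEGFR2, the main signalling receptor, was bright on both endothelial arrays. The probe that represents it (A_51_P316553, mm9 chr5:76329309-76329368, minus strand) was spotted 10 times and read 0.39 ± 0.07 on FRC, 6.72 ± 0.11 on LEC and 6.18 ± 0.04 on BEC (SD between the 10 spots of 1 array). Processed signals were 508.5, 28161.9 and 26163.2. The FRC signal was 1.25% and the BEC signal 69.0% of the LEC signal. LEC and BEC were 1.45-fold apart, and their difference lay between -0.03 and 0.91 over the scalings tried, so their order was not fixed. A second probe (A_52_P478193), 28330 bases further 5′ and also on a transcript with no RefSeq match, was not well above background on any array.

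Flt4, which encodes VEGFR3, was detected on both endothelial arrays and not well above background on the FRC array. Its 1 probe (A_51_P179531, mm9 chr11:49465646-49465705, plus strand) read -4.40 on FRC, -0.66 on LEC and -1.24 on BEC, from processed signals of 18.3, 169.8 and 152.3. LEC exceeded FRC by at least 12.8-fold and BEC exceeded FRC by at least 8.53-fold. LEC and BEC were 1.50-fold apart, so the receptor of VEGF-C was not called different between lymphatic and blood endothelium on these arrays. The 2 calls against FRC were lost when the background was corrected with normexp (a model-based correction with an added offset), which gave log2 differences of 1.86 and 1.36.

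**Figure D3:**
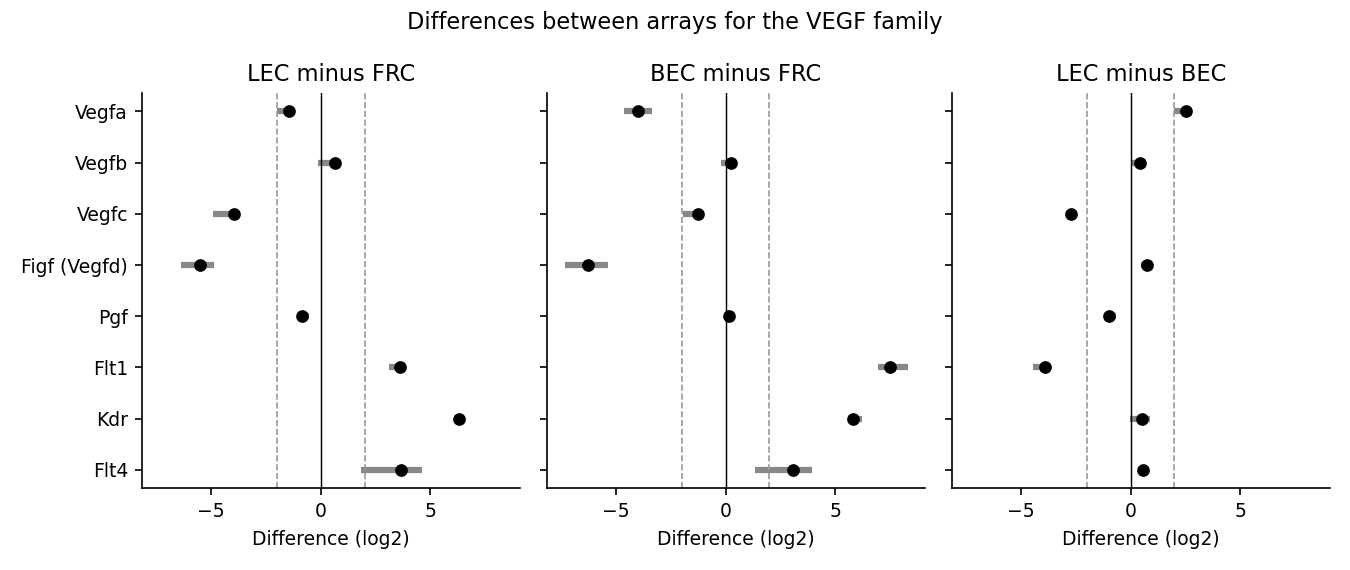
Log2 difference (horizontal axis) of each VEGF ligand and receptor gene for the 3 pairs of arrays, with the main value as a point, the lowest to highest value over the background corrections and scalings tried as a grey bar, and dashed lines at 4-fold. The Flt4 values against FRC are bounds in the main setting, and the bars of Kdr (LEC minus BEC) and of Vegfb against FRC cross 0.

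The array labels were checked against marker genes, whose summed level is the sum of their linear signals after scaling. The 9 shared endothelial markers summed to 8.85 on FRC, 634.9 on LEC and 836.6 on BEC, with 8, 9 and 9 well above background. On the FRC array they thus reached 1.06% of the BEC sum. Kdr, Flt1 and Flt4 on FRC were at 1.25%, 0.554% and 7.47% of their highest arrays, with Flt4 not well above background there. The markers varied, and Tek, at 0.97 on FRC, 1.21 on LEC and 2.27 on BEC, was not called against FRC. The 13 FRC markers summed to 3636.0, 308.8 and 522.6, of which Ccl21a, at 8.66, 6.02 and 8.82 (log2), made most of the BEC sum. Thy1 was the only 1 of the 13 called higher in LEC than FRC, at 3.67 on FRC, 5.91 on LEC and 4.31 on BEC. The 10 LEC markers summed to 3.60, 519.4 and 59.6, with Reln and Ccl20 not well above background on FRC. The 11 BEC markers summed to 197.6, 393.3 and 1850.4.

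Markers of other cells moved with some of these differences. Prox1 and Lyve1, which define lymphatic endothelium, read -0.51 and 3.09 on the BEC array, beside 3.53 and 6.87 on LEC and -3.56 and -0.94 on FRC. Vwf, of blood endothelium, read 2.49 on the LEC array, beside 6.41 on BEC and -0.32 on FRC. Each endothelial array thus gave signal for these markers of the other, and the source of that signal was not tested. The 11 mural cell markers summed to 119.1 on FRC, 77.1 on LEC and 139.4 on BEC, the 13 leukocyte markers to 11.2, 23.6 and 24.4, the 6 adipocyte markers to 3.01, 5.16 and 22.0, and the 6 platelet and erythroid markers to 13.2, 63.6 and 137.0. Well above background were all 11 mural markers on each array, 10, 12 and 12 leukocyte markers, 5, 4 and 5 adipocyte markers, and 2, 5 and 4 platelet and erythroid markers. Itgam and Lep were among the markers not well above background on any array. The mural, leukocyte, adipocyte and combined platelet and erythroid sums were higher on BEC than on LEC, as Vegfc, Flt1 and Pgf were. The leukocyte sum on LEC was 96.8% of that on BEC, and this order depended on Cd24a, also a sort gate gene. LEC minus BEC was -0.49 for Cd24a and 1.14 for Lyz2, the 2 brightest leukocyte markers on both arrays. Of the mural markers, 1 was called higher on LEC (Rgs5) and 3 higher on BEC (Mcam, Notch3 and Tagln). LEC minus BEC of Rgs5 was 2.35 at its brightest probe. It was -0.54, in the opposite direction, at its other probe, which was above background on every array. Hbb-bt made most of the platelet and erythroid sum on BEC, with LEC minus BEC of -1.33 (log2). LEC minus BEC of the platelet genes was 0.52 for Pf4, at least 3.20 for Gp1ba and -2.21 for Ppbp. The part of these markers in the results was not tested. Of the 4 genes of the sort gates, Pecam1 (CD31) read -4.06, 2.33 and 4.02 and Pdpn (gp38) read -0.83, -1.19 and -3.81. Ptprc (CD45) read -2.36, -1.57 and 0.23, and Cd24a 1.61, 3.40 and 3.89.

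Beyond the ligands and receptors, 138 genes on the array from 7 lists of VEGF biology were followed, chosen with earlier results of these data known. Of 136 compared between LEC and FRC, 34 were called higher in LEC and 15 higher in FRC, with a median difference of 0.43, beside 4.85% and 5.90% of all genes. For BEC against FRC, 36 of 136 were higher in BEC and 12 higher in FRC, with a median of 0.70, beside 6.55% and 7.54%. Between LEC and BEC, 9 of 133 were higher in LEC and 13 higher in BEC, with a median of -0.07, beside 3.37% and 3.38%. Some of these genes are also endothelial or population markers (Pecam1, Cdh5, Erg, Sox17 and Prox1), so the lists are not separate from the marker check.

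**Figure D4:**
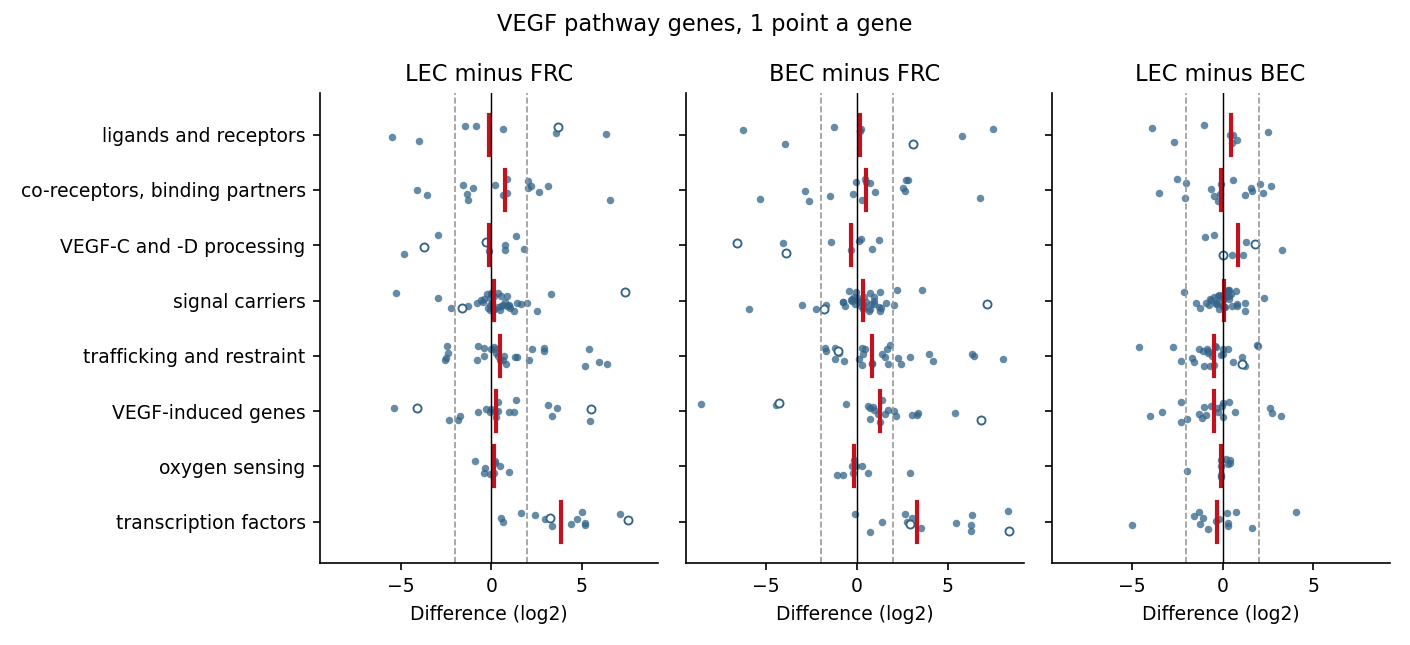
Log2 difference (horizontal axis) of each gene in the VEGF ligand and receptor group and the 7 lists of VEGF biology for the 3 pairs of arrays, 1 point a gene, with open circles for bounds, red bars for list medians and dashed lines at 4-fold. The transcription factor list lies to the right of 0 against FRC, with medians of 3.86 and 3.30, and the oxygen sensing list has medians of 0.16, -0.14 and -0.06.

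Co-receptors and proteins that hold VEGF at the cell surface or in the matrix split by gene. Of 16, 6 were called higher in LEC than FRC and 2 lower (median 0.76), beside 4.85% and 5.90% of all genes. For BEC against FRC, 5 were higher and 3 lower in BEC (median 0.50), beside 6.55% and 7.54%. Against BEC, 3 were higher and 4 lower in LEC (median -0.11), beside 3.37% and 3.38%. Nrp1, the neuropilin that binds VEGF-A with VEGFR2, read 2.40 on FRC, -1.15 on LEC and 2.37 on BEC, 11.8-fold lower in LEC than FRC and 11.5-fold lower than in BEC. All 3 of its probes put LEC lowest. LEC minus BEC was -3.53 at the brightest and -4.22 at A_52_P371237, both above background on every array. At A_52_P174942 the LEC signal was not well above background. Nrp2, the neuropilin of VEGF-C signalling, read 2.20, 4.23 and 4.71, which is 4.09-fold above FRC in LEC and 5.72-fold in BEC, although LEC minus FRC ranged from 1.54 to 2.11 over the scalings and was not called under 3 of them.

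Mmrn2, an endothelial matrix protein that binds VEGF-A, read 0.52, 7.07 and 7.32, 93.9-fold and 111.5-fold above FRC. Its partner Clec14a was 6.63-fold higher in BEC than FRC and 5.79-fold higher than in LEC. Sdc2, a heparan sulphate syndecan, was 17.2-fold higher in FRC than LEC and 40.0-fold higher than in BEC. Itga9, an integrin subunit that binds VEGF-C and VEGF-D, was 8.91-fold higher in LEC than FRC and 6.47-fold higher than in BEC. Plxnd1, a semaphorin receptor that works with neuropilins, was 4.54-fold and 7.12-fold above FRC in LEC and BEC. Itgav was 7.32-fold higher in FRC than BEC at its brightest probe, but its other probe above background on every array differed by 0.36 in the opposite direction. Sdc1 and Gpc1, further heparan sulphate carriers, were 4.02-fold and 6.13-fold higher in LEC than FRC and 4.66-fold and 4.23-fold higher than in BEC. Sdc4 was 6.29-fold higher in FRC than BEC. Hspg2, the basement membrane proteoglycan perlecan, was 6.36-fold higher in BEC than FRC and 4.01-fold higher than in LEC. Ccn2, a matrix protein that binds VEGF-A, was 4.16-fold higher in BEC than LEC. Several of these calls lay near the threshold. Sdc1 was not called in either comparison under normexp, nor between LEC and FRC with median centring. Not called either were Plxnd1 in LEC against FRC and Gpc1 in LEC against BEC with the spike-in slope, and Hspg2 and Ccn2 between LEC and BEC in the authors' quantile-normalized table.

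Genes for the processing of VEGF-C and VEGF-D included 3 of 9 called higher in FRC than LEC, the same 3 higher in FRC than BEC, and none called higher in either endothelium than in FRC (medians -0.14 and -0.32, both 0.06 under normexp). These 3 were Ccbe1, Adamts3 and Pcsk5. Over all genes, 5.90% were called higher in FRC than LEC and 7.54% higher in FRC than BEC. In the other direction, 4.85% were higher in LEC and 6.55% higher in BEC. Ccbe1, the secreted cofactor that VEGF-C cleavage needs, read 2.23 on FRC and -2.59 on LEC and was not well above background on BEC, a difference of 28.4-fold from LEC and at least 97.7-fold from BEC. Its other 2 probes above background on the FRC array were dimmer on LEC and BEC too, with LEC minus FRC of -4.60 and -2.84 from LEC signals not well above background. Adamts3, the protease that cleaves VEGF-C with CCBE1, read -0.49 on FRC and was not well above background on LEC or BEC, at least 13.1-fold and 14.8-fold lower. Under normexp the Adamts3 difference from LEC was -1.76 and was not called. Pcsk5, a proprotein convertase, was 7.73-fold higher in FRC than LEC and 17.0-fold higher than in BEC. Furin, another convertase, read 2.60, 2.46 and 3.45 and was not called. Klk1 was 9.51-fold higher in LEC than BEC, the only 1 of 8 called between the endothelial arrays (median 0.82). Of all genes, 3.37% were called higher in LEC and 3.38% higher in BEC.

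Of 40 carriers of the receptor signal inside the cell, 30 were not called in any comparison. Against FRC, 4 were called higher and 3 lower in LEC (median 0.13), beside 4.85% and 5.90% of all genes. In BEC, 4 were higher and 3 lower than in FRC (median 0.33), beside 6.55% and 7.54%. Nos3, endothelial nitric oxide synthase, was not well above background on FRC and read 3.05 on LEC and 2.82 on BEC, at least 167.1-fold and 142.9-fold higher. Vav3, a guanine nucleotide exchange factor, was 9.92-fold and 4.13-fold higher in LEC and BEC than in FRC. Nfatc1, a calcium-dependent transcription factor, and the adaptor Shb were 5.69-fold and 4-fold higher in LEC, with Shb at the threshold and uncalled under 3 of the 4 other background corrections and scalings. Hspb1, a small heat shock protein phosphorylated downstream of VEGFR2, was 11.9-fold higher in BEC than FRC, and the focal adhesion kinase gene Ptk2 4.55-fold higher. Under normexp, Vav3 (1.14) and Ptk2 (1.99) were not called between BEC and FRC.

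On the FRC side, Pla2g4a, the phospholipase that releases arachidonic acid, was 37.4-fold higher than in LEC and 61.8-fold higher than in BEC. Prkcb, a protein kinase C, was 7.61-fold and 8.06-fold higher in FRC at its brightest probe, whereas its other probe differed by -0.95 and -0.63, below the call. Fyn was 4.66-fold higher in FRC than LEC, and Src 4.70-fold higher in FRC than BEC. Between LEC and BEC, 1 of 39 carriers was called higher in LEC (Src, 4.87-fold) and 1 higher in BEC (Hspb1, 4.44-fold). Their median was 0.08, and 3.37% and 3.38% of all genes were called. Under normexp neither Src call was kept (-1.51 and 1.56), nor was that of Fyn (-1.50), and the Hspb1 call between LEC and BEC was lost in the authors' table (-1.94).

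Genes that move or restrain the receptors included 8 of 27 called higher in LEC than FRC and 4 lower (median 0.46), beside 4.85% and 5.90% of all genes. In BEC, 8 were higher and 0 lower than in FRC (median 0.85), beside 6.55% and 7.54%. Ptprb, the phosphatase VE-PTP that acts on VEGFR2 and VE-cadherin, read 0.28, 6.22 and 6.64, 61.5-fold and 82.2-fold above FRC. Cdh5 (VE-cadherin) was 41.6-fold and 87.7-fold above FRC, and Pecam1 84.1-fold and 271.5-fold. Efnb2, the ephrin that takes part in uptake of VEGFR2 and VEGFR3, exceeded FRC by 35.5-fold in LEC and by 16.0-fold in BEC. Cav1, the main protein of caveolae, was 7.48-fold and 18.7-fold above FRC.

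The Sprouty and Spred genes, which restrain signalling from receptor kinases to ERK, had their lowest value on the LEC array for all 5 followed (Spry1, Spry2, Spry4, Spred1 and Spred2), at the brightest probe of each and under every background correction and scaling tried. A second Spred2 probe above background on every array (A_52_P452697) read -0.93, -1.48 and -1.69, lowest on BEC. Spry4 read -0.93 on FRC, -3.31 on LEC and 1.31 on BEC, 5.21-fold lower in LEC than FRC and 24.6-fold lower than in BEC, and BEC was 4.72-fold above FRC. Normexp took Spry4 below the call in both comparisons with FRC (-1.11 and 1.93). Spry2 and Spred1 were 5.91-fold and 5.53-fold lower in LEC than FRC, and the phosphatase gene Ptprj 5.30-fold lower, a call that Ptprj lost under normexp (-1.87). At second probes, LEC minus FRC was only -0.33 for Spry2 and -0.85 for Ptprj. Between LEC and BEC, none of the 27 was called higher in LEC and 3 were called higher in BEC (median -0.47), beside 3.37% and 3.38% of all genes. The 3 were Spry4, Spred1 (6.69-fold) and Spry1 (4.86-fold). Spred2 (3.03-fold) and Spry2 (LEC minus BEC -0.81, log2) were also higher in BEC than LEC at their brightest probes and were not called.

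Of 24 genes known to be induced by VEGF in endothelium, 22 were on the array, and Esm1 and Dusp5 were not among its gene names. Of 21 compared, 5 were called higher and 3 lower in LEC against FRC (median 0.26), beside 4.85% and 5.90% of all genes. In BEC against FRC, 7 were higher and 3 lower (median 1.27), beside 6.55% and 7.54%. Of 20 compared between LEC and BEC, 3 were called higher and 4 lower in LEC (median -0.49), beside 3.37% and 3.38%. Pdgfb, which recruits mural cells, was not well above background on FRC and read 1.17 and 2.48 on LEC and BEC, at least 45.6-fold and 113.2-fold higher. Hhex, an endothelial and blood homeobox gene, was 44.3-fold and 43.0-fold above FRC. Angpt2, Ets1 and Unc5b were also called higher in LEC than FRC, at 8.72-fold, 10.4-fold and 12.2-fold. Angpt2 and Ets1 were called higher in BEC than FRC too (3.38 and 3.04, log2), and Unc5b was not (0.89).

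BEC exceeded LEC for Cxcr4, a chemokine receptor (16.2-fold), the early response gene Egr3 (9.96-fold), the homeobox gene Hlx (5.01-fold) and Apln, a peptide of sprouting vessels (4.82-fold). A second Egr3 probe (A_51_P437198) put LEC minus BEC at only -0.27. LEC exceeded BEC for F3 (9.48-fold), the netrin receptor gene Unc5b (6.58-fold) and Ptgs2 (6.11-fold), of which F3 (1.56) and Ptgs2 (1.65) were not called under normexp. The genes lower in endothelium than in FRC have wide use outside it. F3, which encodes tissue factor, read 4.36, -0.98 and -4.23, 40.5-fold and 384.0-fold higher in FRC than LEC and BEC, and Plau, the urokinase gene, was above LEC and BEC in FRC by at least 17.0-fold and 19.3-fold. Ptgs2, the inducible cyclooxygenase, was 21.8-fold higher in FRC than BEC, and Cxcr4 4.94-fold higher in FRC than LEC, a call lost under normexp (-1.31) and not made at its second probe (-0.69).

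Oxygen sensing genes that act upstream of Vegfa had 0 of 9 called between LEC and FRC (median 0.16), 0 between LEC and BEC (median -0.06) and 1 between BEC and FRC (median -0.14). With 3.37% to 7.54% of all genes called per direction, counts this low are near the background. That gene was Epas1, which encodes HIF-2α, an oxygen-regulated factor abundant in endothelium, and it read 5.22 on FRC, 6.21 on LEC and 8.15 on BEC, 7.63-fold higher in BEC than FRC. Hif1a read 1.13, 1.04 and 1.10. LEC minus FRC of Epas1 changed sign with the scaling (-0.17 to 1.14), and at its other probe above background on every array (A_52_P293443) it was -0.12, beside 2.07 for BEC minus FRC.

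Transcription factors known to act at endothelial receptor genes had 11 of 14 called higher in LEC than FRC and the same number higher in BEC, with 0 lower in either. Their medians were 3.86 and 3.30, against 0.03 and 0.09 over all genes. The shares of all genes called higher were 4.85% in LEC and 6.55% in BEC, and 5.90% and 7.54% were called lower. Gata2 was not well above background on FRC and was at least 189.1-fold and 331.6-fold higher in LEC and BEC. Tal1, Sox18 and Sox7 were 35.4-fold, 32.7-fold and 26.5-fold higher in LEC and 82.5-fold, 79.1-fold and 79.5-fold higher in BEC. The ETS family genes Fli1, Elk3 and Erg were 20.9-fold, 5.27-fold and at least 9.64-fold above FRC in LEC, and 43.6-fold, 6.76-fold and at least 7.75-fold in BEC. Normexp lowered Erg to 1.74 and 1.44, below the call. A second Fli1 probe above background on every array (A_51_P370600) gave LEC minus FRC of 4.28 and BEC minus FRC of only 2.58. It put LEC minus BEC at 1.70, against -1.06 at the brightest probe. The others called above FRC were Foxc2 (35.7-fold in LEC and 11.7-fold in BEC) and Foxc1 (7.65-fold and 6.34-fold), both forkhead genes of lymphatic development, and Sox17 and Prox1 (10.0-fold and 136.5-fold in LEC, 316.6-fold and 8.27-fold in BEC). Prox1 in BEC under normexp (1.78) and Elk3 in LEC with the spike-in slope (1.76) were not called against FRC. Between the endothelial arrays, 1 of 14 was called higher in LEC (Prox1, the lymphatic identity factor, 16.5-fold) and 1 higher in BEC (Sox17, an arterial and blood endothelial factor, 31.6-fold). The median was -0.29, and 3.37% and 3.38% of all genes were called.

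Genes of like pattern were found by the Euclidean distance between the 3 log2 values of a gene, each less its own mean over the arrays, and those of each VEGF gene, with signals not well above background set at the lowest signal that was, over 12546 genes well above background on the same arrays (430 for Flt4). With only 3 arrays many genes lie close, so nearness describes these arrays and nothing more. For Vegfa the nearest included Fzd1 (distance 0.142) and B3galt1 (0.165). For Vegfc they were Gpc4 (0.067), a glypican, Ggt5 (0.068) and Camkk1 (0.255). Figf lay nearest to Egfr (0.056), the receptor of epidermal growth factor, Pla1a (0.060) and Cd248 (0.107), a fibroblast and pericyte surface protein. Vegfb lay nearest to Avpr1b (0.005), Prune2 (0.010) and Amigo3 (0.019), and Pgf to Zswim1 (0.008), Asf1a (0.012) and Gjc1 (0.020). Avpr1b read -4.18 on FRC, -3.52 on LEC and -3.95 on BEC. These values are near the lowest signals well above background (-4.34, -4.20 and -4.38), unlike those of Vegfb.

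Among the receptor genes, Flt1 lay nearest to Tcf15 (0.166), a basic helix-loop-helix factor, and to Ctla2a (0.269) and Ctla2b (0.280), which are close copies of each other whose signals may not be separable. Tcf15 read -3.15 on FRC, 0.24 on LEC and 4.16 on BEC, the same graded order as Flt1. Kdr lay nearest to Gpr160 (0.282), Nts (0.289), which encodes neurotensin, and Timp4 (0.358). Stk32c, Rhox5 and Erg were the nearest to Flt4, but none of them, nor Flt4, was well above background on FRC, so their likeness rests on LEC and BEC alone.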

How the data were processed

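The deposited scanner files hold linear intensity values, for which the submitters' processing notes name Agilent Feature Extraction 10.7.3.1. The processed intensity had its background subtracted within each array and was not scaled between arrays, per the file headers. The authors' deposited series table holds quantile-normalized intensity and served as an alternative. No program for it is named in the sources used here.

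Outlier spots were left out and spots of a probe averaged, leaving 41156 probes of 41174, of which 59.7% to 60.5% were well above background on each array. No spot was saturated. Each intensity was divided by the 75th percentile of its array (386.8 for FRC, 267.9 for LEC and 360.9 for BEC) before log2. Signals well above background began at 19.1, 14.6 and 17.4. The spike-in slope (log signal on log amount) given in the headers was 0.821 for FRC (outside the range set by the scanner software), 1.00 for LEC and 0.919 for BEC, so an equal change of RNA need not give an equal log2 difference on each array. Probes spotted 10 times had a median SD between spots of 0.072 to 0.095.

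Gene names were updated through RefSeq accessions, which matched 26681 probes and 13 of the 15 VEGF probes. Probe positions are on mm9, per the file headers, and exon and UTR annotation on that build was not used here. Promoter windows are RefSeq's on GRCm38.p6, with the 50 bases after the start left out. The steps were tested on simulated data. With 1 array a population no p-value was computed, and the number of arrays limits the precision. The 8 genes, the gene lists and the rules were chosen with earlier results of these data known. Named genes were the 8, up to 6 per list with the largest differences among those called, those in counts of 5 or fewer, and the 3 of nearest pattern. A few further called members of the lists were named after their values were seen. A few items that these rules select are not reported here. Computation used R 4.3.3, limma 3.58.1 (normexp, offset 50) and Python 3.11.15.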

Additional observations from a re-analysis of the deposited data

How the results depend on the processing

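Every difference of the 8 genes was recomputed under 7 alternatives (normexp background correction, the authors' quantile-normalized table, centring on the median of shared probes, division by the spike-in slope, no filter on dim probes, the median over the probes of a gene, and a 2-fold call), and no call changed direction. Of the recomputed differences, 161 kept their side of the threshold, 4 lost the call and 3 gained it. Normexp lowered Flt4 to 1.86 in LEC minus FRC and 1.36 in BEC minus FRC, and Vegfa to 1.98 in LEC minus BEC. The median over probes lowered Vegfa in LEC minus BEC to 1.82. At 2-fold, Vegfa (LEC and FRC), Vegfc (BEC and FRC) and Pgf (LEC and BEC) were also called. The VEGF pathway genes called at 2-fold numbered 75 for BEC against FRC and 53 for LEC against BEC, in place of 48 and 22. Over the background corrections and scalings, 12 of 49 pathway calls between LEC and FRC, 8 of 48 between BEC and FRC and 8 of 22 between LEC and BEC were lost under at least 1, and 0 changed sign.

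Counts over all genes moved more. Under normexp 550 genes were called above FRC in LEC and 637 below, 744 and 856 for BEC against FRC, and 287 and 327 for LEC against BEC. Division by the spike-in slope gave 1389 and 1391 for LEC against FRC, and leaving out the filter gave 1033 above BEC in LEC. At 2-fold the counts were 2412 and 2484, 3185 and 3142, and 2034 and 1880. Normexp moved the median of all genes in LEC minus FRC from 0.03 to 0.13. No paired analysis was possible because each population has 1 array and no test was made. Signals near background, as for Flt4 on FRC, give bounds only.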
